A study of Mus musculus with 12 samples.

Results

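Messenger RNA of 10 antioxidant enzymes was followed in skeletal muscle of mice with a knockout (KO) of H6pd and of wild-type (WT) mice. The 10 genes are Gpx1, Mgst1, Gstm1, Gclc, Gclm, Nqo1, Txnrd1, Sod1, Sod2 and Cat. Their members on the array are all probe sets that a probe table assigns to just 1 gene symbol, that symbol being one of the 10. This gave 26 of the 45101 probe sets, of which 22 passed a filter on low values, and each of the 10 genes kept at least its brightest probe set. No probe set listed one of these genes together with another gene.

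Soleus and tibialis anterior (TA) were taken from KO and from WT mice, which gives 4 groups, each with 3 one-colour Affymetrix arrays that the labels call biological replicates. All mice were 4 weeks old and weaned, and their muscle looked free of overt myopathy under the microscope, per the design text. Soleus and TA were chosen because they differ in fibre type and metabolism. The labels give no strain or sex, do not describe the knockout allele, and leave unsaid whether equal replicate numbers mark both muscles of 1 mouse.

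H6pd encodes hexose-6-phosphate dehydrogenase, which makes NADPH in the lumen of the endoplasmic reticulum (ER). The enzymes that keep glutathione and thioredoxin reduced draw on a separate pool of NADPH in the cytosol and mitochondria. Glutamate-cysteine ligase, the rate-limiting enzyme of glutathione synthesis, has a catalytic subunit (Gclc) and a modifier subunit (Gclm). Glutathione is then used by peroxidases such as Gpx1 and by transferases such as Mgst1 and Gstm1. Superoxide dismutases (Sod1, Sod2) turn superoxide into hydrogen peroxide, and catalase (Cat) breaks that down. Several of these genes, among them Nqo1, Gclm, Gclc and Txnrd1, are known targets of the transcription factor NRF2, which binds antioxidant response elements in their promoters.

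Promoter letters are shown for Mgst1 and Gclm. These are the genes whose brightest probe sets passed a test below and that have a promoter with the core of such an element. The core searched was TGACNNNGC on both strands, in RefSeq promoters of build GRCm38.p6 that run from 250 bases before to 50 bases after a transcript start. That table matched 9 of the 10 genes, all but Gclc, and 4 of the 9 held a match: Mgst1, Gclm, Txnrd1 and Sod1. In Mgst1 it was in 1 of 2 promoters and in Txnrd1 in 1 of 3. Counted by promoter, 4 of 13 member promoters held it, beside 12.4% of all 32851 promoters of this length. The promoter of Cat, which also passed a test, and those of Nqo1, Gpx1, Gstm1 and Sod2 held no match in these windows. The sequences below are the + strand, 5′ to 3′, at chr6:138140445-138140505 for Mgst1 and chr3:122245397-122245457 for Gclm, and both genes are read from that strand. Capitals mark the match, which lies on the opposite strand and is therefore printed as its reverse complement. It begins 56 bases before the transcript start of that promoter in Mgst1 and 134 in Gclm. A match describes the letters and does not show that a factor binds there.
Mgst1: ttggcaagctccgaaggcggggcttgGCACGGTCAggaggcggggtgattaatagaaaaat
Gclm: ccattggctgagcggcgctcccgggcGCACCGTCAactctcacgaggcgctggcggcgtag

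Levels are log2 signals after quantile normalization, so a difference of 1 is a 2-fold change. Tests used limma over all 27497 probe sets kept, with Benjamini-Hochberg adjusted p under 0.05 as the threshold. The skeletal muscle genes Acta1, Ckm, Mb and Des lay at log2 13.13 to 16.29 on all 12 arrays. The 7 slow fibre markers were higher in soleus than in TA, in KO and in WT alike, with 7 of 7 past the test each time. The 7 fast fibre markers had medians of -3.55 in KO and -3.14 in WT for soleus minus TA. Of these, 3 of 7 passed as lower each time, and Myh1 differed by 0.066 in WT. H6pd itself, read by its brightest probe set, was 4.19 to 6.10 in KO soleus against 5.57 to 7.11 in WT soleus, and 6.49 to 7.49 in KO TA against 6.26 to 7.92 in WT TA. Neither difference passed (adjusted p = 0.68 and 0.972 by limma), so this signal did not check the genotype labels, which were used as given. Arrays of equal replicate number deviated together from their group means, most so those numbered 3 (r = 0.509 to 0.661 between groups over probe sets), and results are given without those arrays where the call of a member changes. The floor here means signals below about log2 2.76, the 40th percentile of each array. This cut was chosen for the filter and is not a measured background. Fewer cells of a type and less RNA per cell cannot be told apart in whole muscle.

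**Figure D1:**
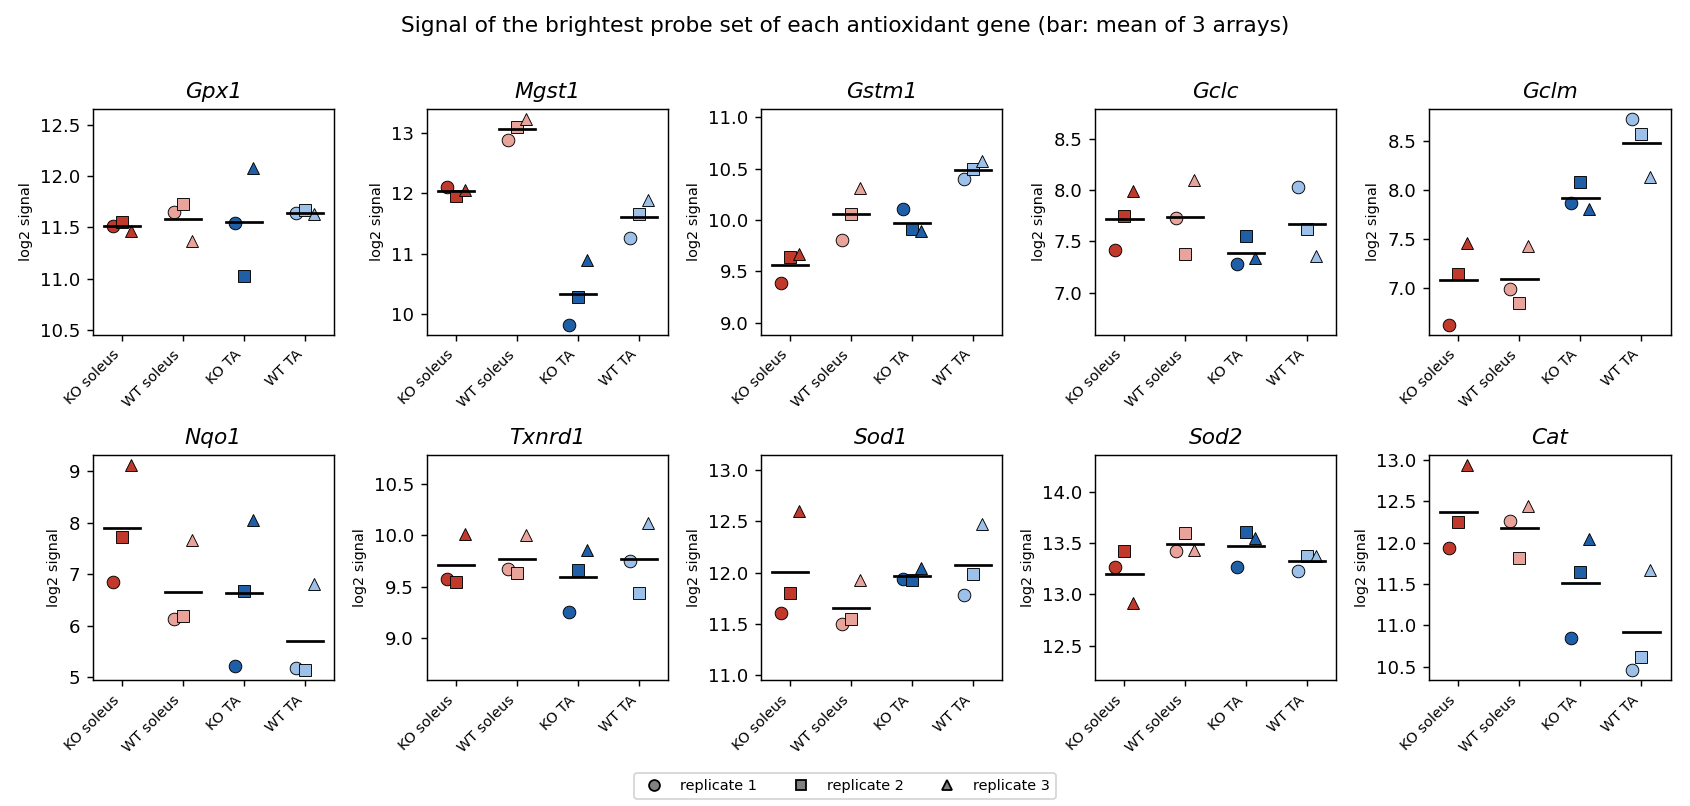
Log2 signal of the brightest probe set of each of the 10 genes (y axis) in soleus of KO and WT mice and in TA of KO and WT mice (x axis, in that order). Points are single arrays with their replicate number as the symbol, and bars are means of 3 arrays. Mgst1 and Gstm1 lie lower in KO than in WT in both muscles without overlap, and Nqo1 is highest on replicate 3 of every group.

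Mgst1 was the member that changed in KO TA. It encodes microsomal glutathione transferase, a membrane enzyme of the ER and the outer mitochondrial membrane that conjugates glutathione and reduces lipid peroxides. Its signal was 9.82, 10.28 and 10.89 in KO TA, against 11.26, 11.67 and 11.88 in WT TA. All 3 KO TA arrays lay below all 3 WT TA arrays. The log2 difference in TA was -1.27 with an SE of 0.25, or 2.42-fold lower in KO (limma adjusted p = 0.0382; n = 3 in each group). In KO soleus it was 12.11, 11.95 and 12.06, against 12.89, 13.11 and 13.23 in WT soleus. These groups did not overlap either, and the difference was -1.04 (SE 0.25, adjusted p = 0.273), which did not pass. The KO effects in soleus and TA differed by 0.23 (95% confidence interval -0.55 to 1.02, adjusted p = 0.963).

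The TA call of Mgst1 was close to its threshold. It held under 9 of 24 alternative settings, with adjusted p from 0.0147 to 0.194 and a difference between -1.55 and -1.02 throughout. Among single arrays left out, it held without KO TA replicate 3 (adjusted p = 0.0263) and without KO soleus replicate 3 (0.0498). It was lost without any other array of the 12, and without all 4 arrays numbered 3 (difference -1.41, adjusted p = 0.0774). Those adjusted p were 0.0587 and 0.124 without KO TA replicates 1 and 2, and 0.0536, 0.101 and 0.094 without WT TA replicates 1, 2 and 3. Without KO soleus replicates 1 and 2 they were 0.06 and 0.0634, and without WT soleus replicates 1, 2 and 3 they were 0.0559, 0.0662 and 0.0547. The other probe set of Mgst1 stayed in the floor at log2 2.32 to 2.34 on all arrays and was not tested.

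Across the 4 groups Mgst1 stood in the order WT soleus (13.08 ± 0.17), KO soleus (12.04 ± 0.08), WT TA (11.60 ± 0.32) and KO TA (10.33 ± 0.54; mean ± SD, n = 3). No neighbouring groups in this order overlapped. The 2 genes whose 12 values ran most like those of Mgst1 were Art5 (Pearson r = 0.952) and Ifi35 (0.944), of 8563 genes compared. These correlations describe the 12 arrays, which share the division by muscle and genotype.

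In all, 1 of the 22 member probe sets tested passed in KO TA, beside 1.68% of all probe sets (462 of 27497), and 5 had an unadjusted p under 0.05, beside 14.8% of all. The median log2 difference was -0.13 over the 22 and -0.006 over all probe sets. In KO soleus 0 of 22 passed by limma, beside 0.0109% of all (3 of 27497), and 4 of the 22 had an unadjusted p under 0.05, beside 7.46% of all. The median there was -0.04, against 0.0023 over all. For the difference between the KO effects, 0 of 22 passed, beside 0.0145% of all, with 2 of 22 at an unadjusted p under 0.05, beside 5.21% of all. With the replicate number as a block, 4.35% of all probe sets passed in KO TA and Mgst1 was still the 1 member probe set (adjusted p = 0.0147).

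KO and WT values did not overlap in 7 member probe sets in TA, all lower in KO, beside 11.0% of all probe sets lower and 9.93% higher without overlap. In soleus 5 were lower without overlap and 1 was higher, beside 5.36% and 5.48% of all. Probe sets of 1 gene are not independent, so these are not counts of genes. In the table as deposited the counts were 5 lower in TA, and 3 lower and 1 higher in soleus.

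**Figure D2:**
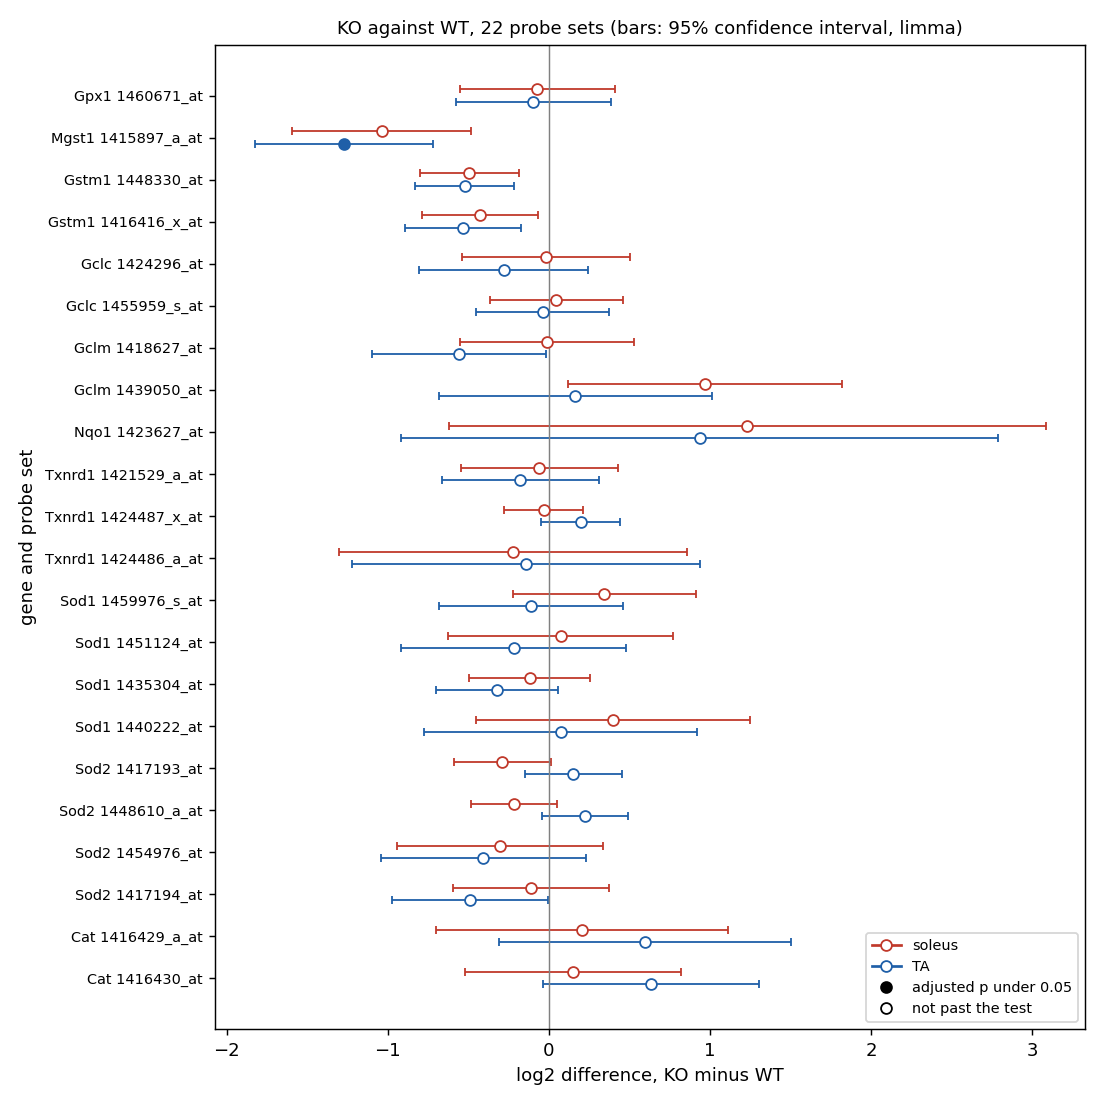
Log2 difference of KO minus WT (x axis) with its 95% confidence interval for the 22 member probe sets (y axis), in soleus and in TA. Filled points passed the test. The Mgst1 point in TA, at -1.27, is the 1 filled point, and both Gstm1 probe sets lie left of 0 in both muscles.

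Gstm1, a cytosolic glutathione transferase of the mu class, had lower values in KO on 2 bright probe sets in both muscles, although none passed the test. On the brighter probe set it was 10.10, 9.91 and 9.89 in KO TA, against 10.40, 10.50 and 10.58 in WT TA. In KO soleus it was 9.38, 9.64 and 9.67, against 9.81, 10.06 and 10.31 in WT soleus. KO and WT did not overlap in either muscle. The differences were -0.52 in TA (SE 0.14, adjusted p = 0.0989) and -0.49 in soleus (SE 0.14, adjusted p = 0.345). The second probe set differed by -0.53 in TA (adjusted p = 0.144) and by -0.43 in soleus (0.529), and its soleus groups overlap in the table as deposited. The suffix of that probe set marks probes that can also bind related sequences, and mu-class genes are alike, so a share of its signal may come from relatives of Gstm1. Its 2 other probe sets lay at log2 1.96 to 2.94, in or near the floor, and were not tested.

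Among mu-class relatives read by their own probe sets, 4 of the transferase list were tested (Gstm2, Gstm4, Gstm5 and Gstm7), and 0 of them passed between KO and WT by limma in either muscle.

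For the subunits of glutamate-cysteine ligase, no difference between KO and WT passed. Gclm, the modifier, was 7.86, 8.08 and 7.81 in KO TA, against 8.72, 8.57 and 8.13 in WT TA. The groups did not overlap, but the difference of -0.56 did not pass (SE 0.24, adjusted p = 0.321). In soleus Gclm was 7.08 ± 0.42 in KO and 7.09 ± 0.30 in WT (mean ± SD, n = 3), and KO minus WT was -0.01 (95% interval -0.55 to 0.53). A dimmer probe set of Gclm went the other way: it was 4.92, 5.48 and 6.21 in KO soleus, against 4.40, 4.64 and 4.65 in WT soleus. That difference of 0.97 had no overlap and did not pass (SE 0.38, adjusted p = 0.563), and in TA the same probe set differed by 0.16 (adjusted p = 0.908). Gclc, the catalytic subunit, differed by -0.28 in TA (95% interval -0.80 to 0.24) and by -0.02 in soleus (-0.54 to 0.50) on its brighter probe set. On its other probe set Gclc differed by -0.04 in TA and 0.05 in soleus, and these small differences change sign with the scaling or the arrays used.

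Gpx1, the cytosolic selenoenzyme that reduces hydrogen peroxide with glutathione, showed no difference between KO and WT that passed. Its 1 probe set was 11.54, 11.02 and 12.08 in KO TA, against 11.64, 11.67 and 11.63 in WT TA. The KO TA arrays spread on both sides of the WT TA arrays, which lay within a narrow range. The difference was -0.10 in TA (95% interval -0.58 to 0.39) and -0.07 in soleus (-0.55 to 0.41). The sign in TA turned without KO TA replicate 2, where it was 0.17.

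Txnrd1, the cytosolic selenoenzyme that reduces thioredoxin with NADPH, was 9.59 ± 0.31 in KO TA and 9.77 ± 0.34 in WT TA. In soleus it was 9.71 ± 0.26 in KO and 9.77 ± 0.20 in WT. Its differences of -0.18 in TA (95% interval -0.66 to 0.31) and -0.06 in soleus (-0.55 to 0.43) did not pass. On this brightest probe set Txnrd1 was highest on replicate 3 of each group, whereas on its 2 dim probe sets it was lowest there. Its 2 dim probe sets, at log2 2.61 to 4.75, differed by -0.22 to 0.20 between KO and WT, none past the test.

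Nqo1, the quinone reductase that uses NADH or NADPH, had the widest spread between arrays of 1 group among the brightest probe sets of the 10 genes (SD 0.862 to 1.42). It was 5.21, 6.67 and 8.05 in KO TA (replicates 1, 2 and 3), against 5.18, 5.14 and 6.80 in WT TA. In KO soleus it was 6.85, 7.71 and 9.12, against 6.14, 6.18 and 7.65 in WT soleus. The groups overlapped in both muscles. Differences of 0.94 in TA (SE 0.83, adjusted p = 0.671) and 1.23 in soleus (SE 0.83, adjusted p = 0.893) did not pass.

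The spread of Nqo1 went with the replicate number. Replicate 3 was the highest array in all 4 groups, 0.995 to 1.40 above its group mean. Between arrays of equal number, KO minus WT was 0.71, 1.53 and 1.46 in soleus and 0.04, 1.53 and 1.25 in TA, so that all 6 differences were above 0. With the number as a block the SE fell to 0.29, against 0.83 without it, and the differences still did not pass (adjusted p = 0.117 in TA and 0.166 in soleus). The labels do not say what the number stands for.

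**Figure D3:**
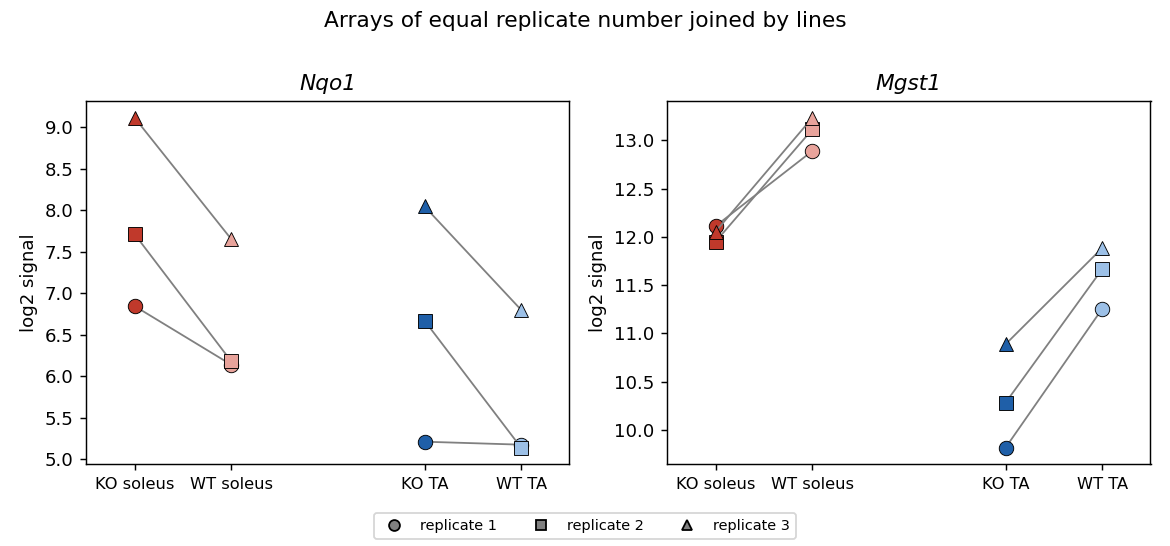
Log2 signal (y axis) of Nqo1 and Mgst1 on each array in soleus of KO and WT mice and in TA of KO and WT mice (x axis, in that order), with lines joining KO and WT arrays of equal replicate number. Nqo1 is higher on the KO array in all 6 pairs and highest on replicate 3 of each group. Mgst1 is lower on the KO array in all 6 pairs, with differences of -1.44 to -0.78.

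The superoxide dismutases showed no difference between KO and WT that passed. Sod1, the copper-zinc enzyme of the cytosol, differed by -0.11 in TA (95% interval -0.68 to 0.46) and by 0.35 in soleus (-0.23 to 0.92) on its brightest probe set. A second bright probe set of Sod1 differed by -0.22 in TA and 0.07 in soleus. On both, replicate 3 was the highest array of every group. On 2 dimmer probe sets Sod1 differed by -0.32 to 0.40, and 1 more was in the floor.

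Sod2, the manganese enzyme of the mitochondrial matrix, was 13.26, 13.42 and 12.91 in KO soleus, against 13.42, 13.60 and 13.43 in WT soleus. KO soleus lay below WT soleus without overlap, though the nearest arrays are equal as rounded here, and the difference was -0.29 (SE 0.14, adjusted p = 0.699). In TA the same probe set was 13.27, 13.61 and 13.55 in KO TA, against 13.22, 13.37 and 13.37 in WT TA. KO minus WT was 0.15 there (SE 0.14, adjusted p = 0.674). The difference between these effects was -0.44 on each of the 2 brightest probe sets (95% intervals -0.87 to -0.01 and -0.82 to -0.06) and did not pass (adjusted p = 0.928 for both). The 2 dimmer probe sets of Sod2 had differences of -0.41 and -0.49 in TA instead, neither past the test. The probe sets of Sod2 therefore disagreed on the sign in TA.

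Catalase, the peroxisomal enzyme that splits hydrogen peroxide, showed no difference between KO and WT that passed. Its brightest probe set was 10.84, 11.65 and 12.05 in KO TA, against 10.46, 10.62 and 11.67 in WT TA. The groups overlapped, and the difference of 0.60 did not pass (SE 0.41, adjusted p = 0.552). A second probe set differed by 0.63 (SE 0.30, adjusted p = 0.37). In soleus the differences were 0.20 and 0.15, with intervals of -0.70 to 1.11 and -0.52 to 0.82.

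The wider set of glutathione, thioredoxin and NRF2 genes held 89 genes, of which 75 were tested, each at its brightest probe set. In KO TA 1 of 75 rose and 0 fell, beside 1.68% of all probe sets in either direction, with a median difference of -0.06. The gene that rose was Gstz1, a transferase that isomerises maleylacetoacetate in tyrosine breakdown, at 8.73 ± 0.03 in KO TA and 7.95 ± 0.13 in WT TA (difference 0.77, SE 0.13, limma adjusted p = 0.0209). In KO soleus 0 of 75 passed by limma, with a median of -0.02. The smallest p there belonged to Gstk1, the mitochondrial and peroxisomal kappa-class transferase, at -1.05 (adjusted p = 0.274), and to Msrb2, a mitochondrial methionine sulfoxide reductase, at -0.72 (0.446). Gstk1 also differed by -0.82 in TA (adjusted p = 0.16).

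By role, the 6 other peroxidases, reductase and synthetase of glutathione had a median of -0.32 in KO TA and 0.03 in KO soleus. The 15 transferases tested had medians of -0.07 in TA and -0.11 in soleus. The 9 thioredoxins, glutaredoxins and their relatives had medians of -0.13 and -0.04. The peroxiredoxins Prdx2, Prdx3 and Prdx4 and sulfiredoxin (Srxn1), 4 genes in all, had medians of -0.04 and 0.12. Prdx1, Prdx5 and Prdx6 had no probe set assigned to just 1 symbol and were not tested. The 15 other NRF2 targets had medians of -0.13 in TA and -0.00093 in soleus, and the 9 NRF2 regulators -0.04 and 0.13. The 10 genes of glutathione supply and breakdown that were tested had medians of 0.03 in TA and -0.05 in soleus. For the 4 methionine sulfoxide reductases they were -0.03 and 0.01. The 3 genes Sod3, Ccs and Atox1 had medians of 0.09 and -0.22. Apart from Gstz1, none of these passed in limma in either muscle. For the difference between the KO effects 0 of 75 passed, the smallest p being those of Gstz1 (-0.50, adjusted p = 0.893) and Msrb3 (0.60, adjusted p = 0.928).

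Markers of fibres and other cells were read beside these values. In KO TA the 7 slow fibre markers had a median difference of 1.35 with 0 of 7 past the limma test. Their summed signal was 3010 to 6060 in KO TA against 989 to 3020 in WT TA. The 7 fast fibre markers had a median of -0.13. They summed to 316000 to 358000 in KO TA against 376000 to 391000 in WT TA, without overlap, and their sums overlapped in soleus. The 4 skeletal muscle markers summed to 179000 to 187000 in KO TA against 191000 to 199000 in WT TA. In soleus that sum was 184000 to 189000 in KO against 196000 to 212000 in WT, so it was lower in KO without overlap in both muscles. The 4 genes did not all fall in TA: Ckm and Mb were lower in KO (-0.18 and -0.23) and Des was higher (0.19). Acta1, the brightest of the 4, was 16.29 on every TA array. In soleus all 4 were lower in KO. The 4 adipocyte markers tested, of 7 listed, had a median of 0.29, with a summed signal of 15900 to 20300 in KO TA against 11100 to 17200 in WT TA. Most of that sum was Fabp4, at log2 14.13 in KO TA and 13.77 in WT TA, against 6.54 and 4.98 for Adipoq. The 7 myeloid markers tested had a median of 0.15 and summed to 1320 to 4730 in KO TA against 1410 to 2650 in WT TA. Of 8 erythroid markers 2 were tested, Alas2 and Slc4a1, with a median of -0.73 and a sum of 21.5 to 32.9 in KO TA against 25.9 to 132 in WT TA. The 7 endothelial markers had a median of 0.15 in KO TA and -0.30 in KO soleus. In soleus they summed to 2170 to 2760 in KO against 2800 to 3210 in WT, without overlap. In TA the endothelial sums overlapped, at 2260 to 2570 in KO against 1960 to 2440 in WT. Beside these sums, 11.0% of all single probe sets were lower in KO TA without overlap and 5.36% in KO soleus. The 4 smooth muscle markers had medians of -0.29 in KO TA and -0.21 in KO soleus, and the 6 fibroblast markers 0.19 and 0.02. The 2 Schwann cell markers tested, of 5 listed, had medians of 0.19 and 0.07. No marker passed between KO and WT in the limma fit without a block, and 1, the erythroid Slc4a1, passed in TA with it (adjusted p = 0.0423). Their part in the Mgst1 difference was not tested.

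Between the muscles, Mgst1 was higher in soleus in KO and in WT mice, and in WT mice 1 probe set of Cat was higher and 1 of Gclm lower. Mgst1 in soleus exceeded TA by 3.27-fold in KO (log2 difference 1.71, SE 0.25, adjusted p = 0.00427) and by 2.78-fold in WT (1.48, SE 0.25, adjusted p = 0.00767). These calls held in all 24 alternatives, with adjusted p up to 0.0455 in KO and 0.0325 in WT. Gclm was 6.99, 6.85 and 7.43 in WT soleus, against 8.72, 8.57 and 8.13 in WT TA. Soleus lay below TA without overlap, 2.61-fold lower (-1.39, SE 0.24, adjusted p = 0.00947), and this held in all 24 alternatives. In KO muscle Gclm was 6.63, 7.14 and 7.46 in soleus, against 7.86, 8.08 and 7.81 in TA, a difference of -0.84 that did not pass (SE 0.24, adjusted p = 0.0827). It passed without KO soleus replicate 3 (adjusted p = 0.049) and without all arrays numbered 3 (0.0429). It also passed with array weights in limma (0.0371) and over probe sets of mean log2 above 5 (0.0495). The dimmer probe set of Gclm differed by 0.46 in KO and -0.35 in WT, neither past the test.

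Catalase was 11.67, 11.65 and 11.70 in WT soleus, against 9.91, 10.05 and 10.65 in WT TA, on its second probe set. WT soleus lay above WT TA without overlap, 2.77-fold higher (1.47, SE 0.30, adjusted p = 0.0192). The call was lost without WT soleus replicate 1 or 2 (adjusted p = 0.0659 and 0.0609) or WT TA replicate 1 or 2 (0.0677 and 0.0654). The brightest probe set of Cat differed by 1.26 (SE 0.41, adjusted p = 0.0947). It passed without WT TA replicate 3 (adjusted p = 0.0438), without all arrays numbered 3 (0.0395) or with array weights in limma (0.0409). In KO muscle Cat differed by 0.99 on the second probe set (adjusted p = 0.0969) and 0.86 on the brightest (0.286).

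Gstm1 lay lower in soleus on both bright probe sets, with differences of -0.40 and -0.39 in KO (adjusted p = 0.136 and 0.22) and -0.43 and -0.49 in WT (0.0911 and 0.0972). On the brighter probe set it passed in WT without WT soleus replicate 3 (adjusted p = 0.0397). With array weights in limma both probe sets passed in WT (adjusted p = 0.0408 and 0.0468). Nqo1 differed by 1.25 in KO and 0.95 in WT, with overlap in both. Gpx1, Gclc, Txnrd1, Sod1 and Sod2 differed between the muscles by at most 0.47 in size on their probe sets, none past the test. Without all arrays numbered 3, the brighter of the 2 dimmer Sod2 probe sets was lower in WT soleus than in WT TA (difference -0.65, adjusted p = 0.035), and with them the difference was -0.47 (adjusted p = 0.342).

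Of the 22 member probe sets, 3 passed between WT soleus and WT TA, 2 higher and 1 lower, beside 6.91% of all probe sets. Between KO soleus and KO TA 1 passed, Mgst1, beside 5.33% of all. With the replicate number as a block these counts became 5 in WT, beside 13.4% of all, and 4 in KO, beside 11.0% of all. The members added in WT were the brightest probe set of Cat (adjusted p = 0.0119) and a bright probe set of Sod1 at -0.44 (0.0449). In KO they were both probe sets of Cat (0.0241 and 0.0488) and Nqo1 (0.032).

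**Figure D4:**
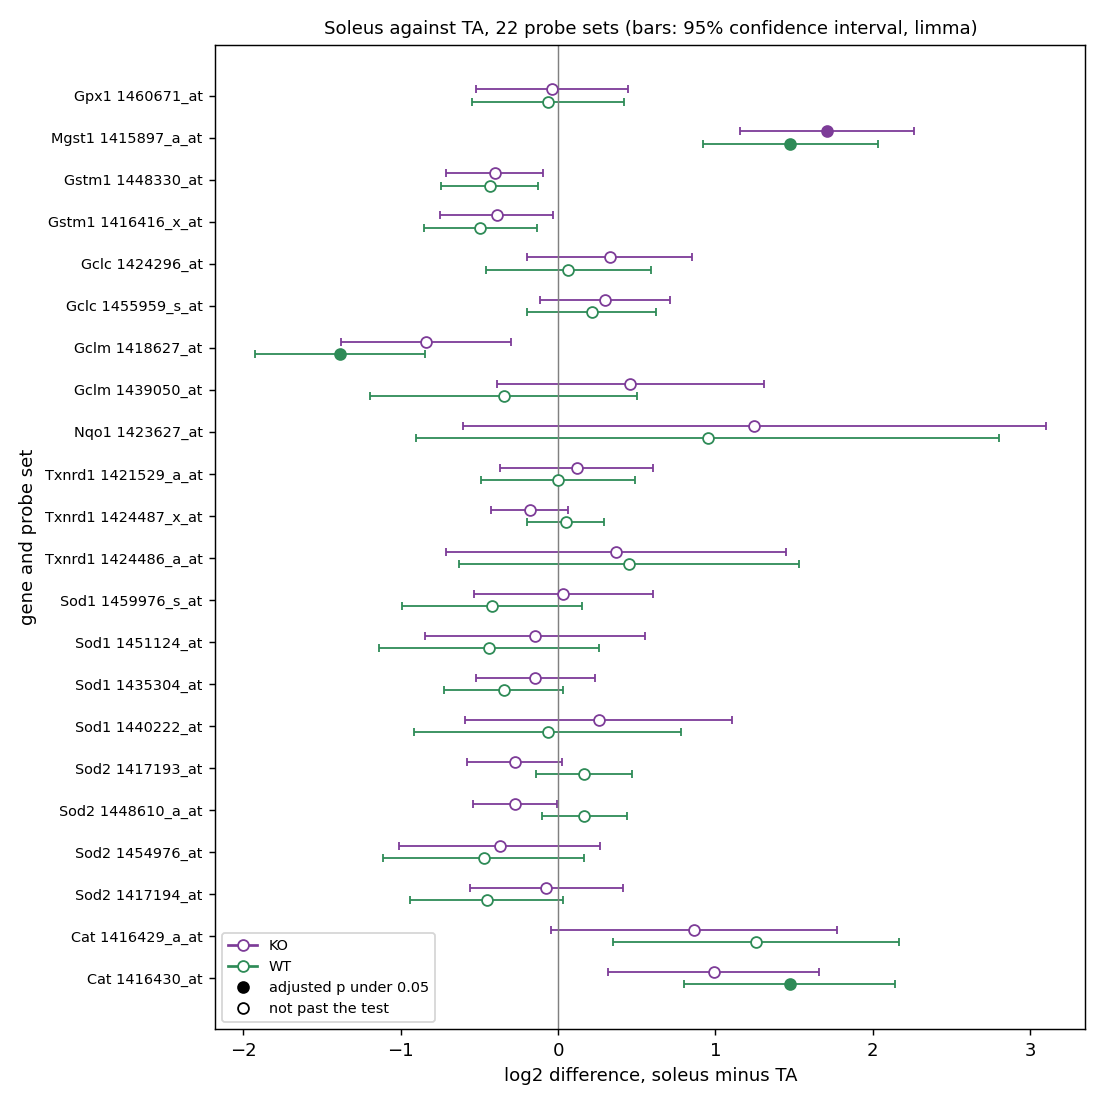
Log2 difference of soleus minus TA (x axis) with its 95% confidence interval for the 22 member probe sets (y axis), in KO and in WT. Filled points passed the test without the block. Mgst1 is filled in both genotypes, and the brighter Gclm and the second Cat probe set are filled in WT.

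Among the 75 related genes, 1 was higher and 4 were lower in WT soleus than in WT TA, a share near the 6.91% of all probe sets that passed. In KO 2 were higher and 4 lower, beside 5.33% of all. With the replicate number as a block the counts were 5 higher and 8 lower in WT, beside 13.4% of all, and 5 higher and 7 lower in KO, beside 11.0% of all. The genes named here passed without the block. Gstm7, a mu-class transferase, was higher by 2.11 (SE 0.22, adjusted p = 0.00062), at 5.16 ± 0.34 in WT soleus and 3.05 ± 0.16 in WT TA, which is near the floor in TA. Lower were Msrb3, a methionine sulfoxide reductase (-1.07), Cul3, the scaffold of the ligase that marks NRF2 for breakdown (-0.80), and the glutaredoxins Glrx (-0.66) and Glrx2 (-0.40). In KO the 6 were Gstm7 (1.59) and Sesn3, a sestrin (1.21), on the higher side, and Gstm4 (-1.04), Cul3 (-0.90), Glrx (-0.85) and Msrb1 (-0.68), a selenoprotein reductase of methionine sulfoxide. The slow fibre markers, with medians of 6.54 in KO and 7.58 in WT, all passed. The 4 adipocyte markers had medians of 1.85 in KO and 1.56 in WT. Summed adipocyte signal was 20500 to 32000 in KO soleus against 15900 to 20300 in KO TA. In WT it was 16900 to 30500 in soleus against 11100 to 17200 in TA. Fabp4 made up most of this sum, with group means of log2 13.77 to 14.50 against 4.98 to 10.17 for Adipoq. The part of this signal in the muscle differences was not tested.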

How the data were processed

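The deposited table holds log2 signals per probe set of 12 arrays, per the values. Per the labels' protocols, Trizol RNA was made into biotinylated cRNA; MAS5 appears in the submitters' processing notes with neither version nor role, and the summary method and genome build are not given in the sources used here. Arrays were quantile normalized, since their 2% trimmed means on the linear scale spread over 1.11 times. Control probe sets (64) were left out, and probe sets above the 40th percentile of the array (log2 2.76) on at least 3 arrays were kept, 27497 in all. R 4.3.3 and limma 3.58.1 fitted 4 group means to all 12 arrays (lmFit, eBayes with a variance trend, 2-sided tests, adjustment over all probe sets). Testing was done per probe set, since all probe sets of a gene were of interest; 1 probe set per gene was an alternative. An exact permutation test of 3 against 3 arrays cannot go below p = 0.1. The fit was run on simulated data with independent noise on each array, which lack the deviations shared by replicate number. p-values measure the spread between arrays, and the labels do not say how replicates were obtained.

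Every member probe set is reported; of the related genes, up to 4 past the test per direction, or up to 2 of smallest p, were named, and the 2 genes most like a member called between KO and WT. Members, lists and rules were chosen with earlier results of these data known. To see whether equal replicate numbers pair arrays, deviations from group means were correlated over probe sets: 0.34, 0.309 and 0.628 for numbers 1, 2 and 3 between KO and WT TA, 0.449, 0.538 and 0.661 between KO muscles, and 0.407, 0.155 and 0.607 between WT muscles, all over the limit of 0.1. KO and WT soleus fell short of it at number 2 (0.36, 0.0741 and 0.659). The pairing comes from these values and not from the labels. Symbols came from a probe table (1 symbol for 34945 probe sets, several for 932, none for 9160). Alternatives covered scaling, filter, pseudocount, variance model, block and left-out arrays.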

Additional observations from a re-analysis of the deposited data

How the results depend on the processing

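Of 2543 alternative values of 110 member differences, 2399 kept direction and side of the threshold, 109 turned sign, 19 lost a call and 16 gained one; no called difference turned sign. Equal replicate numbers as a block gave 4 probe sets for KO minus WT in soleus, against 3 without the block, and 0 members; apart from the calls given in the report it changed no other member call. With 3 arrays per group the number of arrays limits precision. Signals in the floor of each array, below the cut chosen for the filter, are not taken as measured levels. The causes of the changes below were not tested. Probe sets of a gene are ordered by mean signal. For KO minus WT in soleus, all probe sets past the test numbered 1 (mean log2 above 5), 6 (pseudocount 16), 0 (without variance trend), 194 (array weights) and 0 (arrays of the 2 groups alone), and 2 to 22 with 1 array left out. For KO minus WT in TA, all probe sets past the test numbered 287 (no filter), 1196 (replicate block), 4 (arrays of the 2 groups alone) and 49 (without the arrays numbered 3), and 86 to 529 with 1 array left out. For KO minus WT in TA, member probe sets past the test numbered 0 (median centring), 0 (no filter), 0 (array weights), 0 (arrays of the 2 groups alone) and 0 (without the arrays numbered 3), and 0 to 1 with 1 array left out. For the difference of KO effects, all probe sets past the test numbered 1 (table as deposited), 0 (mean log2 above 5), 8 (pseudocount 16), 1 (replicate block), 1 (without variance trend), 8 (robust eBayes) and 10 (array weights), and 1 to 23 with 1 array left out. For soleus minus TA in KO, all probe sets past the test numbered 3033 (replicate block) and 663 (arrays of the 2 groups alone), and 712 to 1464 with 1 array left out. For soleus minus TA in KO, member probe sets past the test numbered 2 (mean log2 above 5), 4 (replicate block), 2 (array weights) and 2 (without the arrays numbered 3), and 1 to 2 with 1 array left out. For soleus minus TA in WT, all probe sets past the test numbered 3692 (replicate block), 4237 (array weights) and 752 (arrays of the 2 groups alone), and 917 to 1959 with 1 array left out. For soleus minus TA in WT, member probe sets past the test numbered 5 (replicate block), 6 (array weights) and 5 (without the arrays numbered 3). Signs turned for KO minus WT in soleus in Gclc (the brightest probe set), 0.020 (table as deposited), 0.13 (array weights) and 0.027 (without the arrays numbered 3), Gclc (the second probe set), -0.17 (array weights) and -0.23 (without the arrays numbered 3), Gclm (the brightest probe set), 0.033 (table as deposited), 0.013 (median centring) and 0.041 (array weights), Txnrd1 (the third probe set), 0.11 (array weights) and Sod1 (the second probe set), -0.034 (array weights). Signs turned for KO minus WT in TA in Gclc (the second probe set), 0.036 (table as deposited) and 0.082 (median centring), Sod1 (the brightest probe set), 0.0050 (array weights) and 0.047 (without the arrays numbered 3) and Sod1 (the fourth probe set), -0.17 (without the arrays numbered 3). Signs turned for the difference of KO effects in Gpx1, -0.051 (median centring) and -0.10 (array weights), Gstm1 (the brightest probe set), -0.054 (median centring) and -0.028 (array weights), Gclc (the second probe set), -0.010 (median centring), -0.14 (array weights) and -0.20 (without the arrays numbered 3) and Txnrd1 (the third probe set), 0.31 (array weights). Signs turned for soleus minus TA in KO in Gpx1, 0.011 (median centring) and 0.25 (without the arrays numbered 3), Sod1 (the brightest probe set), -0.12 (array weights) and -0.22 (without the arrays numbered 3), Sod1 (the third probe set), 0.0058 (median centring) and Sod2 (the fourth probe set), 0.038 (table as deposited) and 0.050 (median centring). Signs turned for soleus minus TA in WT in Gpx1, 0.062 (median centring), 0.029 (array weights) and 0.036 (without the arrays numbered 3), Gclc (the brightest probe set), -0.27 (array weights) and -0.27 (without the arrays numbered 3), Txnrd1 (the brightest probe set), 0.077 (table as deposited), 0.15 (median centring) and 0.056 (without the arrays numbered 3) and Txnrd1 (the second probe set), -0.022 (table as deposited). With 1 array left out, signs turned for KO minus WT in soleus in Cat (the brightest probe set) -0.079 to 0.42, Cat (the second probe set) -0.010 to 0.32, Gclc (the brightest probe set) -0.20 to 0.16, Gclc (the second probe set) -0.17 to 0.17, Gclm (the brightest probe set) -0.20 to 0.21, Gpx1 -0.18 to 0.0031, Sod1 (the fourth probe set) -0.089 to 0.76, Sod1 (the second probe set) -0.18 to 0.27, Sod2 (the fourth probe set) -0.26 to 0.098, Sod2 (the third probe set) -0.51 to 0.034, Txnrd1 (the brightest probe set) -0.21 to 0.059, Txnrd1 (the third probe set) -0.66 to 0.41 and Txnrd1 (the second probe set) -0.097 to 0.016. With 1 array left out, signs turned for KO minus WT in TA in Gclc (the second probe set) -0.097 to 0.043, Gclm (the second probe set) -0.069 to 0.56, Gpx1 -0.36 to 0.17, Sod1 (the fourth probe set) -0.16 to 0.29, Sod1 (the second probe set) -0.38 to 0.081 and Sod1 (the brightest probe set) -0.26 to 0.086. With 1 array left out, signs turned for the difference of KO effects in Gclc (the second probe set) -0.13 to 0.21, Gpx1 -0.24 to 0.29, Gstm1 (the second probe set) -0.043 to 0.24, Gstm1 (the brightest probe set) -0.097 to 0.16, Mgst1 (the brightest probe set) -0.022 to 0.51, Nqo1 -0.42 to 0.997, Sod1 (the third probe set) -0.0056 to 0.33, Sod1 (the fourth probe set) -0.16 to 0.68, Sod1 (the second probe set) -0.0076 to 0.49, Sod2 (the third probe set) -0.10 to 0.44, Txnrd1 (the brightest probe set) -0.055 to 0.28 and Txnrd1 (the third probe set) -0.52 to 0.55. With 1 array left out, signs turned for soleus minus TA in KO in Gpx1 -0.30 to 0.23, Sod1 (the fourth probe set) -0.23 to 0.62, Sod1 (the second probe set) -0.40 to 0.013, Sod1 (the brightest probe set) -0.26 to 0.23, Sod2 (the fourth probe set) -0.22 to 0.12 and Txnrd1 (the brightest probe set) -0.050 to 0.25. With 1 array left out, signs turned for soleus minus TA in WT in Gclc (the brightest probe set) -0.12 to 0.25, Gpx1 -0.14 to 0.045, Sod1 (the fourth probe set) -0.30 to 0.15, Txnrd1 (the brightest probe set) -0.17 to 0.17, Txnrd1 (the third probe set) -0.18 to 0.88 and Txnrd1 (the second probe set) -0.0054 to 0.079.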
